A study of Homo sapiens with 3 samples.

Results

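The regions described here are stretches of 1 kb in Hep3B cells that hold few measured CpGs and whose methylation lies near the middle of the scale. Hep3B is an established human hepatocellular carcinoma cell line. Each autosome was divided into fixed windows of 1 kb from its first base, and a CpG was kept if each of the 3 libraries covered it with at least 10 reads. A window was a member if it held 5 to 10 such CpGs and its mean level, taken over CpGs and then over the 3 libraries, lay from 35% to 65%. In total, 12467 of 111495 autosomal windows with at least 5 CpGs met this rule (11.2%), and they held 82892 CpGs. Both the CpG number and the mean level chose these windows, so neither is a result.

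The libraries were 1 of parental Hep3B cells and 1 from each of 2 SOX4 knockout lines made from Hep3B with CRISPR/Cas9 (labelled SOX4 KO #1 and SOX4 KO #2, hereafter line 1 and line 2). SOX4 encodes a transcription factor with an HMG box. The knockout lines were grown with puromycin, whereas no such selection is stated for the parental cells; whether each line came from a single cell is not given in the sources used here. The comparison asks whether DNA methylation differed between cells with and without SOX4. With 1 parental library and 1 library per line, the difference between the 2 knockout lines is the only measure of spread between samples of the same genotype, and the effects of the knockout, of selection and of growth as a separate line cannot be told apart.

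Methylation of cytosine in CpGs is copied to the new strand after each cell division by a maintenance enzyme, DNMT1, and is removed by failure of that copying or by the TET enzymes. In most human cells, CpG islands at promoters carry little methylation, whereas scattered CpGs outside islands carry much of it. A level in between can arise when cells, or the alleles within a cell, differ from each other, or when methylated and unmethylated CpGs lie side by side. Long regions of partial methylation are well known in tumour cell lines. A pooled level per CpG does not tell these situations apart.

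For an impression of such sequences, 6 promoters with measured CpGs in these windows are shown, 250 bases before the start site each, with every CpG in capitals. They were picked after their values were seen, as examples of the patterns described further on: lower levels in both knockout lines (PDE7B and DPPA3), higher levels in both (TP73), means with differences under 10 points (PCDHB8 and ALDH1L1) and a border between unmethylated and methylated CpGs (POGZ). The bases are those of RefSeq promoter sequences of GRCh38.p14. Their place in GRCh37, the build of the files, was found from the spacing of the CpGs alone, and the bases between the CpGs were not compared with GRCh37.
PDE7B: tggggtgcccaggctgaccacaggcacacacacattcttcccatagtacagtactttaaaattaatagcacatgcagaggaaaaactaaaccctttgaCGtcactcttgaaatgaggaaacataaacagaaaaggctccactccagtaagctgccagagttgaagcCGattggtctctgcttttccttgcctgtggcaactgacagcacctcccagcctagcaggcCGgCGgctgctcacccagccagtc
DPPA3: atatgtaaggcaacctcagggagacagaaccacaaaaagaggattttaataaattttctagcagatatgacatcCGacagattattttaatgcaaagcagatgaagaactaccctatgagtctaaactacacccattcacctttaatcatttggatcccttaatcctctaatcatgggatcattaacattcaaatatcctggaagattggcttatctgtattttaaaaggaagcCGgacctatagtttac
TP73: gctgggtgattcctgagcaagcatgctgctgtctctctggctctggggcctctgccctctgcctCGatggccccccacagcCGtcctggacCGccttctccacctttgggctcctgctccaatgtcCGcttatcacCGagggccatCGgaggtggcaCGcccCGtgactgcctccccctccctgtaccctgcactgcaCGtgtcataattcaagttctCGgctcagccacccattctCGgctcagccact
PCDHB8: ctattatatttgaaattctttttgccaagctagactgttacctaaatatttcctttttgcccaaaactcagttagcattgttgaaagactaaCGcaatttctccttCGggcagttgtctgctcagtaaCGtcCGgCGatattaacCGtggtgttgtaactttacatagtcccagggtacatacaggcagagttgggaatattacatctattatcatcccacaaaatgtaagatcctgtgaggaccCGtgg
ALDH1L1: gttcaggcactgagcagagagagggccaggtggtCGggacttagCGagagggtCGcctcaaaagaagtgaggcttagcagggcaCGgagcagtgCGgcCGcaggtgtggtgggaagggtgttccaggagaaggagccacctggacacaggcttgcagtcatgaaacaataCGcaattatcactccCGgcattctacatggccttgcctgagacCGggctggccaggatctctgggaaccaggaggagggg
POGZ: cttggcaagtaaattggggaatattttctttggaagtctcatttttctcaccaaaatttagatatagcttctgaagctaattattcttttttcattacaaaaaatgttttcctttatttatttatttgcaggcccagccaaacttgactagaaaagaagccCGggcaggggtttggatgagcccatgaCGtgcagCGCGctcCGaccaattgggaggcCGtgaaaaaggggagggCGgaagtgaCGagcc
In GRCh37, these lie at chr6:136172589-136172838 (PDE7B, plus strand), chr12:7863779-7864028 (DPPA3, plus), chr1:3614360-3614609 (TP73, plus), chr5:140557121-140557370 (PCDHB8, plus), chr3:125900030-125900279 (ALDH1L1, minus) and chr1:151431971-151432220 (POGZ, minus). Some of them cross the edge of the member window. The window of DPPA3 starts at position 7864001, so only the end of its sequence, with the second of its CpGs, lies inside, and the last bases shown of POGZ lie outside its window, which starts at 151432001. The sequences hold between 2 CpGs (DPPA3) and 11 CpGs (TP73), and their GC content runs from 35.6% in DPPA3 to 63.2% in TP73.

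The 3 libraries held 104702738 (parental), 96987706 (line 1) and 133170621 (line 2) reads over CpGs. In the members, the median CpG was covered by 31 reads in parental, 29 in line 1 and 38 in line 2. At this depth the exact 95% interval of a single CpG level was 28.5, 28.5 and 26.4 points wide in the median, and that of a whole window, from its pooled reads, was 13.2, 13.7 and 12.03 points wide. These intervals cover counting error only, since PCR copies are not independent molecules. A difference of 10 points at a single CpG was therefore not detectable at the usual depth, whereas window means resolved it better.

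The members had median levels of 56.3% in parental, 43.8% in line 1 and 49.996% in line 2. Leaving out the lowest and the highest 5% of windows, parental spanned 37.8% to 75.8%, line 1 spanned 24.9% to 62.9%, and line 2 spanned 34.8% to 65.2%. Although the average of the libraries placed every window within the range, single libraries did not always lie there: 9190 windows were within it in parental (73.7%), 9168 in line 1 (73.5%) and 11128 in line 2 (89.3%). A total of 6040 windows (48.4%) lay within it in all 3. Parental left the range mainly upwards, with 2921 windows over 65% and 356 under 35%, and line 1 mainly downwards, with 2894 under 35% and 405 over 65%. Line 2 left it on either side about equally, with 663 and 676 windows.

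**Figure D1:**
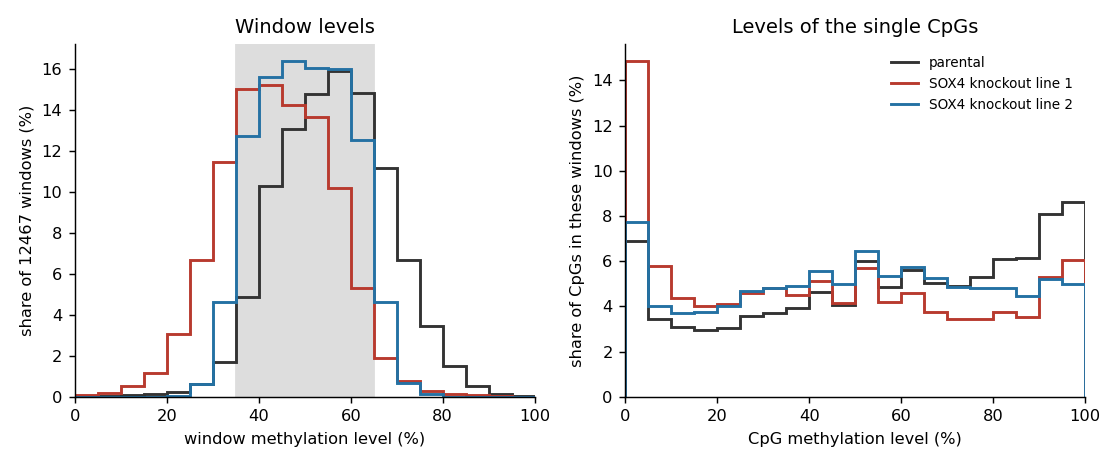
Left, distribution of the mean methylation level (%, bins of 5 points) of the 12467 windows in each library, with the range that chose them in grey. Right, the levels of their 82892 single CpGs. The window levels of line 1 sit lowest and those of parental highest, whereas the single CpGs cover the whole scale, and line 1 has the highest bar next to 0.

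Both knockout lines had lower levels than parental in most of these windows, and line 1 lay lower than line 2. The median difference was -11.4 points for line 1 minus parental, -5.84 points for line 2 minus parental, and -5.35 points for line 1 minus line 2. Over all autosomal windows with at least 5 CpGs the same medians were -1.86, -1.01 and -0.858 points. Since windows near 0% or 100% have little room to move, and a large difference between libraries itself pulls a mean towards the middle of the scale, this contrast with all windows is a description. The first and the second difference share the parental library. Of all 6 orders, parental above line 2 above line 1 was the most frequent, in 7316 members (58.7%), and it was also the most frequent over all windows (41.2%). The opposite order held in 978 members (7.84%).

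CpG-sparse windows outside the range moved less. Those with a mean under 35% had median differences of -3.36 points in line 1 and -1.61 points in line 2, and those over 65% had -1.49 and -0.996 points. Windows of the same level but with more than 10 CpGs were close to the members: their median differences were -9.78 points in line 1 and -5.27 points in line 2. Within the members, the median line 1 difference was -11.6 points in windows with 5 CpGs, -12.2 points with 6, -11.6 points with 7, -11.3 points with 8, -9.93 points with 9 and -9.54 points with 10.

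At a difference of at least 25 points, 2216 members were lower in line 1 than in parental (17.8%, against 4.16% of all windows), and 186 were higher (1.49%, against 0.42%). For line 2, 425 members were lower than parental (3.41%, against 0.63%) and 52 were higher (0.417%, against 0.0906%). Between the knockout lines, 528 members were lower in line 1 than in line 2 (4.24%, against 0.778%) and 64 were higher (0.513%, against 0.117%). The count of lower windows in line 2 against parental was thus below that between the knockout lines themselves.

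Parental lay above both lines by at least 25 points in 385 members (3.09%, against 0.554% of all windows) and below both in 41 (0.329%, against 0.0682%). For comparison, line 1 lay below both other libraries in 476 members (3.82%, against 0.685%) and above both in 57 (0.457%, against 0.1%), so line 1 stood apart from the rest somewhat more often than parental did. Line 2 rarely stood apart: it was above both others in 3 members (0.0241%, against 0.00448%) and below both in 1 (0.00802%, against 0.00359%). In most windows line 2 took a place between the other libraries.

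**Figure D2:**
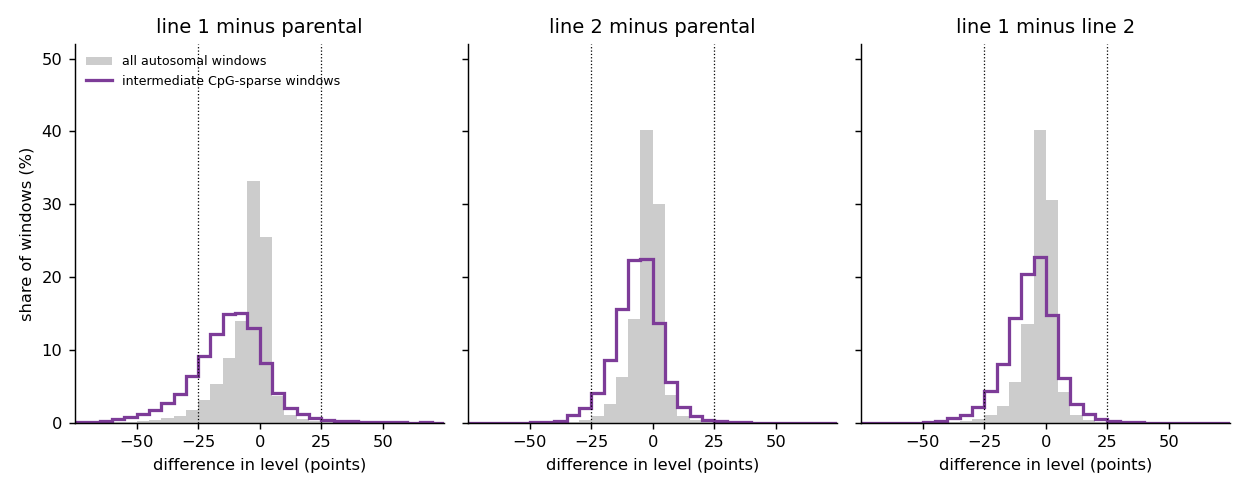
Share of windows (%) by the difference in mean level (points, bins of 5) for each pair of libraries, for the 12467 intermediate CpG-sparse windows (line) and all 111495 autosomal windows (grey). Dotted lines mark a difference of 25 points either way; the line lies left of 0 in each panel, with medians of -11.4, -5.84 and -5.35 points.

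The windows were also chosen in other ways. When the parental level alone selected windows by the same range, 12049 qualified, and their median differences were -10.5 points in line 1 and -5.46 points in line 2. When the mean of the 2 knockout lines selected them, 12292 qualified, with -11.2 and -5.71 points. The windows past 25 points in line 2 were fewer under the parental choice, at 188 lower and 22 higher, and both lines together had 163 lower and 11 higher, against 385 and 41 by the main rule.

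Single CpGs were compared between libraries with a 2-sided Fisher exact test on methylated and unmethylated reads, adjusted after Benjamini and Hochberg over all 2238764 CpGs with enough reads, and called at an adjusted p under 0.05 with a difference of at least 25 points. In line 1 against parental, 11967 member CpGs were called lower (14.4%, against 4.46% of all CpGs tested) and 1286 higher (1.55%, against 0.599%). In line 2 against parental, 2066 were called lower (2.49%, against 0.713%) and 235 higher (0.284%, against 0.0831%). Between the lines, 3105 were called lower in line 1 than in line 2 (3.75%, against 1.07%) and 392 higher (0.473%, against 0.184%). Calls in the same direction in both lines against their common parental library numbered 1801 lower (2.17%, against 0.6%) and 184 higher (0.222%, against 0.0581%). These tests compare libraries, not genotypes.

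Called CpGs, in either direction, were counted per window. At least 1 CpG was called in 6446 members for line 1 against parental (51.7%, against 29.4% of all windows and 26.1% of those with 5 to 10 CpGs). For line 2 against parental it was 1661 members (13.3%, against 7.54% and 5.72%), and between the lines 2390 (19.2%, against 10.9% and 8.53%). At least 3 CpGs were called in 1778 members for line 1 (14.3%, against 8.85% and 4.99%), in 130 for line 2 (1.04%, against 0.804% and 0.306%) and in 267 between the lines (2.14%, against 1.24% and 0.626%). Every measured CpG of the window was called in 96 members for line 1 (0.77%, against 0.112% and 0.181%), in 1 for line 2 (0.00802%, against 0.000897% and 0.00153%) and in 6 between the lines (0.0481%, against 0.00538% and 0.00918%). Thus most members with a called CpG had fewer than 3.

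The comparison of the 2 knockout lines with parental was fitted with limma on the log2 ratio of methylated to unmethylated reads per window, over 113184 windows. It called 0 members in either direction at an adjusted p under 0.05 (0% of all windows). At an unadjusted p under 0.05, 1601 members were lower in the knockout lines (12.8%, against 8.3% of all windows) and 128 were higher (1.03%, against 0.808%). The smallest adjusted p among the windows named further on was 0.546. Without precision weights, 848 members were lower and 81 higher at an unadjusted p under 0.05. The fit had 1 residual degree of freedom per window.

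A window mean in the middle of the scale did not mean that its CpGs lay there. The median SD of CpG levels within a member was 29.2 points in parental, 31.1 in line 1 and 28.6 in line 2, whereas reads drawn at the same depths from a single level per window would give 9.06, 9.33 and 8.25 points. CpG-sparse windows with low means had a median SD of 14.8 points in parental and those with high means 7.38 points, both of which have less room to vary. Windows with more than 10 CpGs and intermediate means had 29.4 points, close to the members.

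In parental, 16.4% of member CpGs were methylated under 20%, 55.6% from 20% to 80% and 28.0% over 80%. In line 1 the same shares were 29.0%, 52.9% and 18.0%, and in line 2 they were 19.2%, 61.9% and 18.9%. Thus CpGs over 80% were fewer in both lines. The class under 20% was the one that held more CpGs in line 1 than in parental, and in line 2 the middle class was larger by more than the low one.

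Neighbouring CpGs were alike when close and less so when apart. In parental, the median difference between neighbours was 11.1 points at 2 to 10 bp, 18.8 points at 11 to 50 bp, 28.8 points at 51 to 200 bp and 39.3 points at over 200 bp. The same order held in line 1 (from 11.8 to 36.6 points) and in line 2 (from 11.4 to 37.0 points). In CpG-sparse windows with high means, the differences in parental ran only from 4.18 to 7.94 points over the same distances. Those with low means had 3.08 to 15.7 points. Windows with more than 10 CpGs and intermediate means had 9.09 to 31.7 points, so the rise with distance was not particular to the members.

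**Figure D3:**
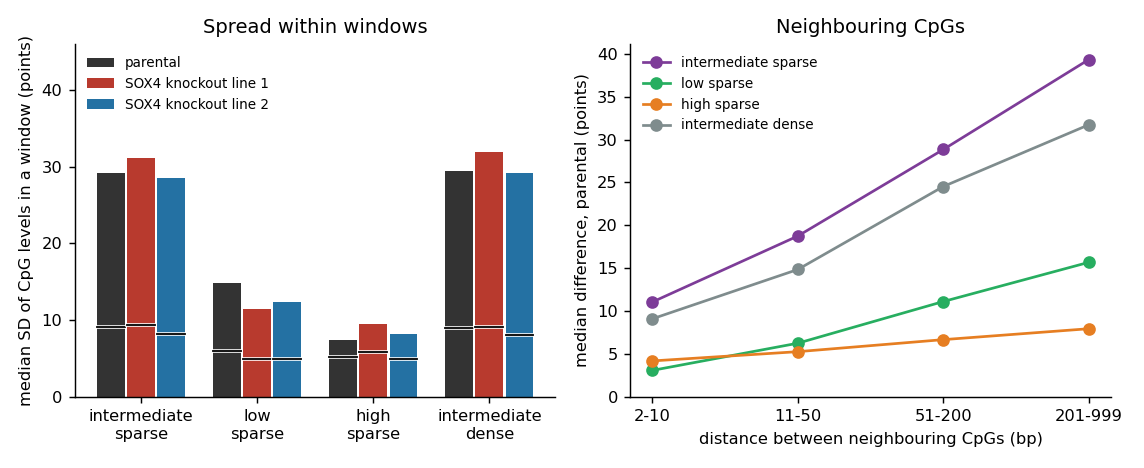
Left, median SD (points) of the CpG levels within a window for 4 kinds of windows in each library, with a black line at the SD that sampling of reads from a single level would give. Right, median difference (points) between neighbouring CpGs in parental by their distance (bp); the intermediate CpG-sparse windows run from 11.1 to 39.3 points.

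Some members were split into unmethylated and methylated CpGs that were the same in every library. A window was called split if at least 2 CpGs were under 20% and at least 2 others over 80% in all 3 libraries. There were 1123 such members (9.01%), and in 747 of them all CpGs of one kind lay on one side of those of the other. CpGs that were of neither kind in all 3 libraries were left out of this count, so other changes along the window could remain. The contrary form, with every CpG from 20% to 80% in all libraries, was seen in 377 members (3.02%), and 45 had every CpG from 30% to 70%. The remaining 10967 were of neither form (88.0%). Median differences in line 1 were -4.57 points in split windows, -4.73 in the even ones and -12.8 in the rest. As both forms require agreement of all libraries, small differences are built into them.

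The 5 members with the largest common fall were chosen by the smaller of their 2 differences, so their differences are given as values only. At chr5:166594001-166595000, the mean over 6 CpGs was 87.5% in parental, 5.88% in line 1 and 26.9% in line 2. Each of the 6 CpGs was at 80% or more in parental. At chr14:34407001-34408000 (8 CpGs) the levels were 87.0%, 9.61% and 34.6% in the same order of libraries. At chr11:120504001-120505000 (5 CpGs) they were 74.2%, 7.82% and 25.6%, and at chr2:210737001-210738000 (6 CpGs) 81.8%, 6.87% and 33.4%. In all of these line 1 lay lowest and line 2 between the other libraries. Only at chr9:70179001-70180000 (5 CpGs) were the lines close to each other, with 85.5% in parental, 33.1% in line 1 and 36.0% in line 2, and that window had the fewest reads (55 in parental). It had 1 called CpG in line 1 and 0 in line 2. The same counts were 6 and 5 on chr5, 8 and 4 on chr14, 5 and 0 on chr11 and 6 and 3 on chr2.

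Among the 5 members with the largest common rise, the first was chr12:101480001-101481000, with 6.81% in parental, 76.1% in line 1 and 53.5% in line 2 over 7 CpGs. In parental, 4 of these CpGs had no methylated read. At chr16:4094001-4095000 (9 CpGs) the levels were 21.3%, 87.8% and 66.5%, and at chr4:6371001-6372000 (7 CpGs) 19.6%, 88.3% and 59.4%. At chr19:1172001-1173000 (7 CpGs) they were 27.8%, 77.8% and 68.1%, and at chr2:237119001-237120000 (5 CpGs) 26.4%, 76.7% and 65.8%. Line 1 was the highest library in each of the 5, and line 2 again lay between. A matched start site, that of LOC102725180, lay within 10 kb of the chr19 window, at 3169 bp; no matched start site lay within that distance of the others.

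The 100 kb around these windows did not always share their change. Around the first of the falls, the mean level without the window was 71.4% in parental, 35.7% in line 1 and 53.2% in line 2. Around chr14:34407001-34408000, in contrast, it was 48.8%, 45.7% and 46.9%. Around the chr16 rise it was 71.1%, 68.9% and 71.5%, whereas around chr4:6371001-6372000 it was 32.6%, 76.7% and 54.4%.

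Windows that stayed even in all libraries were found as well. At chr10:75258001-75259000, the best covered of the 5 most even members with 594 reads in parental, 639 in line 1 and 807 in line 2, the mean over 6 CpGs was 49.97%, 47.96% and 49.4%. The single CpGs there ran from 44.6% to 54.5% in parental and from 35.9% to 65.7% in line 2. At chr2:206848001-206849000 (5 CpGs) the levels were 48.1%, 47.3% and 48.1%, at chr12:63793001-63794000 (5 CpGs) 52.1%, 50.8% and 51.3%, at chr7:94858001-94859000 (5 CpGs) 46.7%, 48.1% and 46.3%, and at chr17:21206001-21207000 (6 CpGs) 42.7%, 40.9% and 41.2%. The 100 kb around them ranged from 21.9% (chr17) to 82.8% (chr7) in parental, so an even middle level was found in quite different surroundings.

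In the most sharply split members, CpGs at about 0% and about 100% lay within 1 kb of each other. At chr3:171410001-171411000, 3 CpGs were at 96.7%, 97.4% and 100% in parental and at 100% in both lines, whereas the other 2, beyond position 171410251, were at 2.70% and 0% in parental and at 0% in both lines. At chr17:41755001-41756000 (9 CpGs), the CpG at position 41755052 was at 100% and that at 41755093 at 0% in every library. The window at chr12:125251001-125252000 (6 CpGs) held 2 CpGs at 0% in every library, 2 at 95.2% or more, and 2 that were at 70.4% and 61.9% in parental, 9.52% and 10.5% in line 1 and 42.4% and 42.1% in line 2. The other split windows named by this rule were chr8:6634001-6635000 and chr1:184775001-184776000, with gaps of 99.5 and 98.6 points between the means of their low and their high CpGs.

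A few windows set a single knockout line apart. At chr21:28821001-28822000 (7 CpGs) the level was 83.9% in parental and 64.7% in line 2 but 1.67% in line 1. At chr17:75422001-75423000 (8 CpGs) it was 3.61% in parental, 38.8% in line 2 and 94.7% in line 1. At chr5:19479001-19480000 (5 CpGs) it was 81.2% in parental, 72.4% in line 2 and 18.6% in line 1. For line 2, chr16:14491001-14492000 (5 CpGs) had 75.2% against 45.3% in parental and 43.2% in line 1, and chr3:9091001-9092000 (5 CpGs) had 13.6% against 42.4% and 50.3%. At chr7:2705001-2706000 (7 CpGs) line 2 had 57.5% against 29.5% and 29.9%. That window had 112 pooled reads in parental, 77 in line 1 and 80 in line 2. None of its CpGs was called in any pair of libraries. At the chr16 window, 1 CpG was called in line 2 against parental and 0 between the lines. The chr3 window had 1 and 3 such calls. Called CpGs in line 1 against parental numbered 7 on chr21, 8 on chr17 and 5 on chr5. Between the lines they numbered 7, 5 and 4. These windows were chosen for their differences.

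**Figure D4:**
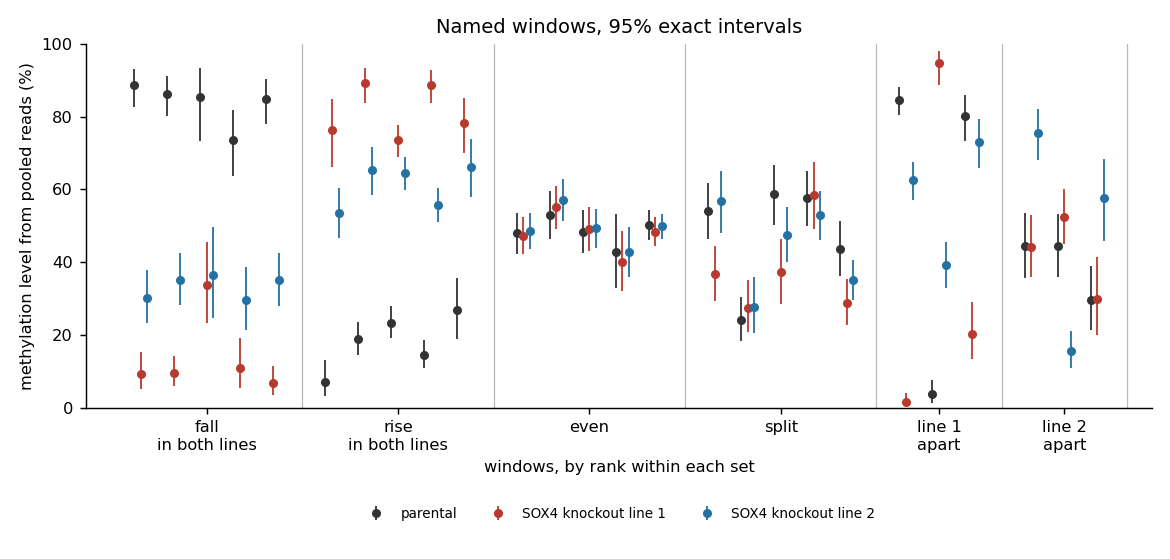
Methylation level from the pooled reads (%) of the named windows in parental, line 1 and line 2, grouped by the rule that named them and ordered by rank; bars are exact 95% intervals for counting error. In the windows named for a common fall or rise, line 2 lies between parental and line 1 in each window. The intervals of the lines overlap in the fall on chromosome 9 and in the rises on chromosomes 19 (narrowly) and 2.

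Depth, CpG number and strand were set beside these differences. Members were sorted by the lowest of their 3 depths per CpG. The median line 1 difference was -11.9 points in the 3258 members with 10 to 20 reads and -11.0 points in the 1760 with 50 to 100 reads. In the 359 members with 100 reads or more it was -7.28 points, and 6.69% of those were lower by at least 25 points. Of the reads over member CpGs, between 79.9% and 80.1% came from the complementary strand. Over member CpGs with at least 10 reads on each strand, the mean level was 52.2% on the forward and 57.4% on the complementary strand in parental, 41.9% and 46.3% in line 1, and 47.0% and 52.1% in line 2. The strand difference was about the same in every library, and with the complementary strand alone, an alternative added after seeing the data, the median differences were -11.7 points in line 1 and -6.02 points in line 2.

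The members were mostly isolated among the measured windows, as 3361 (26.96%) had a measured window next to them. Of these, 640 (19.0%) lay beside another member. A measured neighbour was found for 33.0% of low and 24.7% of high CpG-sparse windows, and for 62.0% of intermediate windows with more than 10 CpGs. Of those with a neighbour, 26.2%, 46.3% and 30.9% lay beside a window of their own kind, each a larger share than in the members. These kinds made up 18.4%, 29.0% and 5.99% of all windows and the members 11.2%, so the shares alone do not compare how strongly each kind clusters. Among the 3717 measured neighbours, 17.5% were members, against 11.2% of all windows, and 14.6% were intermediate windows with more than 10 CpGs, against 5.99%. High CpG-sparse windows made up 14.7% of the neighbours, against 29.0% of all windows. Runs of 2 members occurred 305 times and runs of 3 occurred 10 times, and no run was longer. In the order of the genome, the first 3 of the longest runs were chr3:187419001-187422000, chr6:32904001-32907000 and chr8:11764001-11767000. Their mean levels were 66.3%, 48.9% and 61.8% in parental, line 1 and line 2 for the first, 55.5%, 43.5% and 53.4% for the second, and 54.9%, 35.5% and 52.2% for the third. In all 3 runs line 2 was nearer to parental than line 1 was.

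Most members lay far from unmethylated CpG-dense sequence, here a window with more than 10 CpGs and a mean under 20%. The distance to the nearest such window was 36 kb in the median, and 9512 members (76.3%) were more than 10 kb away. This was not particular to the members. The median was 33 kb in CpG-sparse windows with low means and 32 kb in those with high means. Of these windows, 69.4% and 74.6% were more than 10 kb away. The 651 members that touched 1 such window had a median line 1 difference of -6.37 points, against -12.2 points in those more than 10 kb away. Of the former, 17.7% were split, against 8.51% of the latter. Within members that touched such a window, CpGs within 200 bp of it had a mean of 44.0% in parental, 36.7% in line 1 and 40.5% in line 2, and those at 800 to 1000 bp had 60.3%, 54.7% and 57.7%. Levels were thus lower next to the unmethylated window in every library.

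The wider surroundings were given by the parental mean over the 100 kb around a member, without the member. Of 11573 members with at least 20 CpGs there, 4683 (40.5%) had surroundings from 20% to 40%. The median line 1 difference of the members went from -9.51 points where the surroundings were under 20% to -14.3 points where they were from 60% to 80%, and it was -9.85 points in the 613 members with surroundings over 80%. In line 2 the corresponding medians were -4.48, -6.32 and -5.14 points. Across chromosomes, the median line 1 difference ran from -14.1 points on chromosome 6 to -8.74 points on chromosome 22, and it was below 0 on each of the 22 autosomes.

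Few members could be tied to a gene. Of 35116 RefSeq promoter sequences, 24706 had at least 5 CpGs, and 10602 of these fitted the CpG positions of the files at a single place on the chromosome of their gene. For 208 genes, at least 3 measured CpGs of the 300 bases lay in a member, 206 members in all. The start site itself lay in the member for 167 of these genes and outside it for 41. A promoter level here is the mean over these measured CpGs only, which can be a small part of the CpGs in the 300 bases. The median promoter level of these genes was 53.2% in parental, 40.6% in line 1 and 47.4% in line 2. Among the 206 members, 39 were lower in line 1 by at least 25 points and 3 higher, and 5 were lower in line 2 and 1 higher, shares of 18.9%, 1.46%, 2.43% and 0.485% that lie close to those of the other members (17.8%, 1.49%, 3.43% and 0.416%). At least 1 promoter CpG was called in line 1 against parental in 115 of the 208 genes, in line 2 against parental in 31 and between the lines in 50. Over all 10406 cases of a placed promoter with at least 3 measured CpGs in a window, of any level, the shares were 13.1%, 3.53% and 4.61%.

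The genes were grouped by known roles after their values had been seen, so the groups serve to describe them and support nothing, and their counts are to be read beside the 115 and 31 of all 208 genes. Among 15 immune genes, 9 had a called CpG in line 1 and 3 in line 2, and the median promoter level was 50.8% in parental, 35.7% in line 1 and 42.4% in line 2. SAMSN1, an adaptor protein of lymphocytes, had 84.6% ± 11.6 in parental, 35.7% ± 29.1 in line 1 and 63.8% ± 12.9 in line 2 (SD over 8 CpGs), and 7 of its CpGs were called lower in line 1. MX1, an interferon-induced GTPase with antiviral activity, had 50.8%, 21.5% and 38.8% over 4 CpGs, of which 3 were called lower in line 1. NLRC4, a sensor of bacterial proteins in the inflammasome, had 54.5%, 18.8% and 37.4% over 5 CpGs, of which 2 were called lower in line 1. CXCR2, a chemokine receptor, had no called CpG and levels of 51.3%, 35.6% and 52.2% over 6 CpGs. Over the 15 immune genes, line 1 was the lowest library at 10, line 2 at 4 and parental at 1, TNFRSF9, a receptor of the TNF family, with 16.9%, 26.9% and 21.2% over 3 CpGs.

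Of 6 genes for liver plasma proteins and enzymes, 2 had a called CpG in line 1 and 1 in line 2. KLKB1, which encodes plasma prekallikrein, had 49.6% in parental, 19.5% in line 1 and 28.9% in line 2 over 5 CpGs, of which 3 were called lower in line 1 and 3 in line 2. GGT1, a gamma-glutamyltransferase, had 57.8%, 35.8% and 50.8% over 5 CpGs, of which 2 were called lower in line 1. No CpG was called at AGXT (48.3%, 47.4% and 51.6% over 6 CpGs), the peroxisomal enzyme that detoxifies glyoxylate, at C1R (47.2%, 45.3% and 42.1% over 7 CpGs), a protease of the complement system, or at ADH1C, an alcohol dehydrogenase (61.5%, 38.7% and 51.8% over 3 CpGs). ALDH1L1, a cytosolic enzyme that removes formyl groups from folate, had 59.6% ± 22.4 in parental, 53.3% ± 23.7 in line 1 and 50.1% ± 24.3 in line 2 (SD over 10 CpGs) with no called CpG. Its CpGs differed among themselves and, at some places, between libraries: at -166 bp the levels were 97.2%, 96.3% and 86.5%, at -37 bp they were 41.2%, 37.0% and 36.5%, and at -206 bp 61.3%, 35% and 36%.

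The germ line and early embryo genes were few. DPPA3, which protects maternal methylation in the early embryo, had 45.7% ± 15.0 in parental, 5.87% ± 5.11 in line 1 and 23.8% ± 6.52 in line 2 (SD over 5 CpGs). All 5 of its CpGs were called lower in line 1 and 1 in line 2. These CpGs lay from -16 to 47 bp, and the 5 other CpGs of the same window, from 93 to 207 bp, had means of 52.1%, 49.4% and 53.8%. In line 1 the difference thus lay mainly at the CpGs by the start site. In line 2, single CpGs outside differed in opposite directions. At 194 bp it had 37.5% against 52.6% in parental, and at 207 bp 41.7% against 0%. The latter CpG had 17 reads in parental and 12 in line 2. SUN3, a testis protein of the nuclear envelope, had 69.5%, 32.3% and 55.4% over 6 CpGs, of which 5 were called lower in line 1. LEUTX, a homeobox gene of the early embryo, had 67.0%, 29.8% and 48.7% over 5 CpGs, none of which was called, and TEX101, a testis surface protein, had 30.8%, 25.7% and 38.2% over 7 CpGs, again with none called.

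Of 9 neuronal and ion channel genes, 7 had a called CpG in line 1 and 2 in line 2. The promoter mean was below parental at 6 of them in line 1 and at 8 in line 2. At SLC4A10, a bicarbonate transporter of neurons, all 5 CpGs were called lower in line 1, with 74.4% in parental, 27.8% in line 1 and 57.6% in line 2. At ELAVL4, a neuronal RNA-binding protein, 4 of 9 CpGs were called lower in line 1 and 3 in line 2 (63.8%, 44.8% and 44.0%). KCNS3, a potassium channel subunit, was one of the few with a CpG called higher in line 1 (71.0%, 83.7% and 68.6% over 6 CpGs, 1 called). KCNAB2 was higher in both lines (50.1%, 59.4% and 63.8% over 9 CpGs) and MCHR2 in line 1 (37.2%, 44.0% and 34.7% over 7 CpGs). Neither had a called CpG. The 5 clustered protocadherins, cell adhesion proteins of neurons, went from 11.3% (PCDHGA2) to 89.8% (PCDHB15) in parental. In each line, 3 of the 5 were below parental. PCDHGA2 was higher in both lines, at 20.8% and 20.2% over 5 CpGs, with none called. PCDHA12 had 56.1%, 25.8% and 35.8% over 9 CpGs, of which 5 were called lower in line 1 and 1 in line 2. PCDHB8 was alike in the libraries, with 48.6% ± 14.5, 52.4% ± 17.2 and 52.3% ± 11.2 (SD over 9 CpGs), although 1 of its CpGs was called lower in line 1. Genes with uncharacterised or long non-coding names made up 52 of the 208, with a median line 1 difference of -9.36 points against -11.1 points for all 208.

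Promoters with at least 5 measured CpGs were also ranked by the smaller of their 2 differences from parental. The 5 largest common falls were at PDE7B, LMNTD1, TRIM67-AS1, GJD4 and CCDC172. PDE7B, a phosphodiesterase that breaks down cyclic AMP, had 76.7% ± 15.4 in parental, 14.3% ± 9.26 in line 1 and 36.9% ± 10.2 in line 2 (SD over 5 CpGs). Its lowest CpG in parental, at 52.4%, lay above the highest in line 1 (27.6%) and in line 2 (49.4%), and 5 CpGs were called lower in line 1 and 2 in line 2. LMNTD1, a gene with a lamin tail domain, had 87.3%, 32.0% and 60.1% over 5 CpGs. TRIM67-AS1, an antisense transcript at TRIM67, had 84.2%, 37.1% and 57.4% over 8 CpGs. GJD4, a connexin, had 58.7%, 20.2% and 32.0% over 5 CpGs, and CCDC172, a coiled-coil protein, had 67.0%, 31.4% and 41.1% over 7 CpGs. All 5 had the order parental, line 2, line 1. CpGs called lower in line 1 and in line 2 numbered 4 and 2 at LMNTD1 and 6 and 4 at TRIM67-AS1. They numbered 4 and 0 at GJD4 and 4 and 3 at CCDC172, so the fall at GJD4 had no call in line 2.

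The 5 largest common rises were at TP73, RBM47, NPLOC4, TPSG1 and MUSTN1. TP73 encodes a transcription factor of the p53 family, and the sequence shown belongs to one of its start sites. Its promoter had 29.99% ± 9.17 in parental, 62.2% ± 31.3 in line 1 and 69.2% ± 10.2 in line 2 (SD over 8 CpGs), with 1 CpG called higher in each line. At -124 bp the CpG levels were 41.7%, 100% and 82.9%, but at -88 bp line 1 stayed at 9.09%, with 12.5% in parental and 69.0% in line 2. Only 11 to 14 reads covered each of these CpGs in line 1. RBM47, an RNA-binding protein, had 38.9%, 60.01% and 57.5% over 7 CpGs, and TPSG1, a mast cell tryptase, had 48.8%, 66.3% and 69.2% over 7 CpGs, both with no called CpG. NPLOC4, a cofactor of the p97 segregase, had 45.6%, 79.3% and 64.0% over 5 CpGs, of which 2 were called higher in line 1 and 1 in line 2. MUSTN1, a small protein of muscle and skeleton, had 40.7%, 70.004% and 52.4% over 6 CpGs, of which 1 was called higher in line 1.

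Promoters within the range in every library that differed least between them were OSBP2 (63.9%, 61.9% and 62.2%), LOC101927949 (56.9%, 54.6% and 55.8%), LOC105376479 (44.2%, 42.6% and 42.0%), RCAN3 (59.7%, 58.5% and 60.8%) and SLC25A24 (53.3%, 50.3% and 53.7%). At LOC101927949, 1 CpG was called lower in line 1, at -142 bp, with 73.6%, 37.5% and 55.1%. Its CpG at -98 bp went the other way, with 45.1%, 66.0% and 59.2%, and was not called. The SD over CpGs at RCAN3, a regulator of calcineurin, was 46.2 points in parental, and at SLC25A24, a mitochondrial carrier, 51.6 points, so their steady means stood over CpGs that were either high or low. At SLC25A24 only 6 of the 15 CpGs in the 300 bases were measured in the member. SNRPN, a gene of the imprinted domain on chromosome 15, had 57.8% in parental, 40.1% in line 1 and 50.02% in line 2 over 6 CpGs at 1 of its start sites, with no called CpG. NPM1, the nucleolar protein nucleophosmin, had 59.8%, 40.7% and 38.0% over 7 CpGs, of which 1 was called lower in line 1.

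Among the promoters with at least 5 measured CpGs in a member, 4 had a mean under 20% in every library. Their means cover only a part of the CpGs in the 300 bases: 6 of 15 at POGZ, 5 of 38 at TMEM185B, 6 of 19 at POFUT4 and 5 of 11 at SUMF1. The limits given for a count of 0 are 3 reads of the total and cover counting error only. POGZ, a zinc finger protein with a transposase-derived domain, had 0.544% in parental, 3.93% in line 1 and 0.159% in line 2 over 6 CpGs from -89 to -32 bp, and the 4 CpGs from -529 to -417 bp had 92.2%, 87.5% and 92.0%. TMEM185B, a transmembrane protein, had 0 methylated reads of 74, 53 and 118 over 5 CpGs, which allows levels of up to 4.05%, 5.66% and 2.54%, while its 5 CpGs from 398 to 514 bp into the gene had 97.8%, 100% and 96.0%. POFUT4 had 10.8%, 0% and 9.30% over 6 CpGs, with 0 of 195 reads in line 1, which allows up to 1.54%, and SUMF1, which activates sulfatases, had 17.8%, 6.45% and 13.0% over 5 CpGs. At SUMF1 the mean came from the CpG at -182 bp, which had 87.0% in parental, 30.7% in line 1 and 62.2% in line 2 and was called lower in line 1, whereas the other 4 CpGs were at 1.86% or less in every library.

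**Figure D5:**
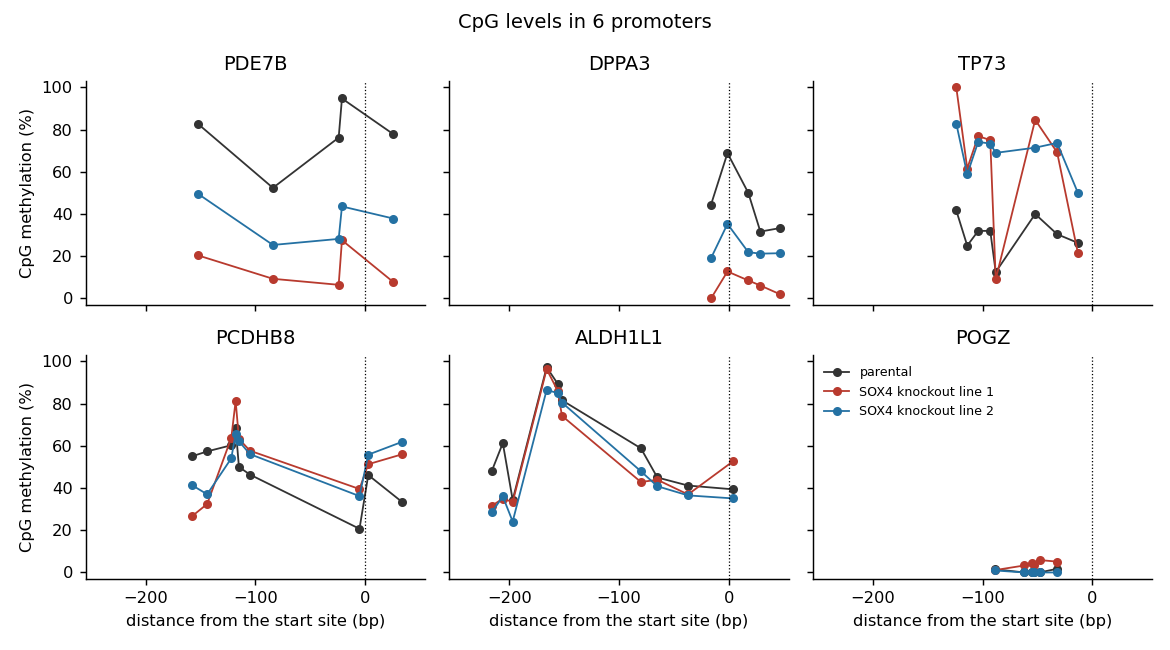
Methylation (%) of single CpGs in 6 promoters by distance from the start site (bp, upstream negative) in parental, line 1 and line 2; each point is 1 CpG with at least 10 reads. Parental lies above both lines at every CpG of PDE7B and DPPA3 and below line 2 at every CpG of TP73, the 3 libraries cross in PCDHB8, the highest CpG of ALDH1L1 lies at -166 bp in each library, and POGZ lies near 0.

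The matched sequences also gave the bases beside each promoter CpG. CpGs with A or T on both sides (the tetramer ACGA and its reverse complement TCGT, as well as the palindrome ACGT and the further palindrome TCGA, searched on both strands) numbered 207 and had mean levels of 41.2% in parental, 27.6% in line 1 and 35.1% in line 2. The 393 CpGs with C or G on both sides had 59.4%, 46.01% and 52.5%, and the 584 others, which had either a mixed pair or the edge of the sequence beside them, had 53.9%, 42.5% and 48.2%. The order was the same in each library. The median line 1 differences were -9.72, -8.70 and -6.67 points in the 3 groups. In line 2 they were -3.77, -4.55 and -4.09 points, so the groups did not rank alike in the lines. At least 1 of these 4 tetramers occurred in 156 of the 208 promoters (75%), against 66.6% of all RefSeq promoter sequences and 81.6% of the 10602 that were placed in the genome. Among the promoters shown, the CpG of PDE7B at -152 bp, with 82.5%, 20.3% and 49.4%, and that of POGZ at -62 bp, with 0%, 3.30% and 0%, are of this kind.

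Windows at the bounds of the range are given for orientation. Just inside the lower bound, chr8:87077001-87078000 had 52.8%, 13.7% and 38.6%, and chr3:197835001-197836000 had 40.2%, 33.4% and 31.4%. Just outside it, chr17:36489001-36490000 had 42.4%, 25.9% and 36.8%, and chr9:136499001-136500000 had 42.0%, 38.9% and 24.1%. Just inside the upper bound, chr11:128808001-128809000 had 80.1%, 51.8% and 63.1%, and chr3:49219001-49220000 had 74.4%, 58.7% and 62.0%. Just outside it, chr4:132662001-132663000 had 77.0%, 59.6% and 58.4%, and chr1:160056001-160057000 had 69.8%, 57.7% and 67.5%. Parental was the highest library in all 8.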

How the data were processed

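Genomic DNA (500 ng, sheared to 150 to 200 bp) was enriched with the TruSeq Methyl Capture EPIC kit, bisulfite converted, amplified and sequenced. The files deposited by the authors hold raw read counts (total, in CpG context and methylated) for each cytosine on each strand, with no normalization. The deposited level, a fraction, equalled methylated over context reads within 5e-07. The submitters' processing notes name GRCh37 (hg19). The aligner, the caller and the handling of PCR duplicates are not given in the sources used here, and duplicates would make intervals too narrow. A C-to-T difference from the reference reads as an unmethylated C.

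Strands were summed per CpG, with the position of the G on the forward strand as its place. The level of a window is the mean over its CpGs that every library covered with 10 reads or more. Each pair of libraries was compared per CpG by a 2-sided Fisher exact test adjusted after Benjamini and Hochberg over every CpG tested, and called at an adjusted p under 0.05 and 25 points. In R 4.3.3, the log2 ratio of methylated to unmethylated reads per window, with 1 read added to each, was modelled with limma 3.58.1 and binomial precision weights, as 1 parental library against 2 knockout libraries. Intervals are exact Clopper-Pearson at 95%. Scripts for tests were tested on simulated data. Alternatives included another read minimum, shifted windows, other bounds, thinning and other selecting libraries.

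Named windows were the 5 largest common falls and rises, the 5 most even, the 5 most split, 3 apart for each line, the 3 longest runs (10 were tied, and the first in genome order were named) and 2 on each side of the bounds. Gene names came from RefSeq promoter sequences (GRCh38.p14, 300 bases) whose CpGs, 5 or more, fitted the spacing of the CpGs in the files at 1 place only. As a check, 42 mirrored sequences fitted somewhere, against 10607 real ones. Promoters with 5 or more measured CpGs were named by the 5 largest common falls and rises, the 5 smallest ranges within 35% to 65% and all levels under 20%. The promoter rules, the 6 sequences shown, NPM1, SNRPN and the gene groups were chosen after values were seen. The windows and lists were chosen with earlier results of these data known. Whether SOX4 was edited was not analysed here, and sequences of the other windows were not used here.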

Additional observations from a re-analysis of the deposited data

How the results depend on the processing

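Across 26 results, 158 values were recomputed: 107 stayed, 51 moved and 0 reversed. A count stayed if it was within 1.5 times the count reported, and a difference if it was within the spread of the lines. For the median SD of CpG levels within members, the limit was the SD of its values over the 3 libraries. The median differences stayed below 0 under every alternative that was run for them, and all of these lay within 3.90 points of the values reported. For the mean of both lines, the median was -8.56 points, -5.84 without line 1 and -11.4 without line 2. As the limit came from the gap between the lines, leaving out a line could hardly pass it, so these values decide nothing. No paired analysis was possible because only 1 library of parental cells was measured. With limma, leaving out a knockout line leaves no residual degree of freedom, so it was not run as a test.

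A minimum of 20 reads left 7444 members. It gave 1218 lower and 108 higher in line 1, 199 lower and 28 higher in line 2, 188 lower and 25 higher in both lines, and median SDs of 27.7 (parental), 29.7 (line 1) and 27.2 points (line 2); fewer windows were tested. A minimum of 5 reads gave 82 higher in line 2. The range from 40% to 60% left 8307 members. With members chosen by the parental level, line 2 had 188 lower and 22 higher, and both lines had 163 lower and 11 higher. At a threshold of 10 points, line 1 had 6744 lower and 668 higher, line 2 had 3956 lower and 504 higher, and both lines had 3569 lower and 320 higher. At 50 points these counts were 226 and 30 for line 1, 2 and 0 for line 2, and 2 and 0 for both lines.

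The mean of both lines was lower than parental by 25 points in 1114 members and higher in 107. Without either line these counts ranged from 425 (without line 1) to 2216 (without line 2) and from 52 (without line 1) to 186 (without line 2), so the choice of line decides them. Calls of member CpGs in both lines numbered 1801 lower and 184 higher, and calls in a single line ranged from 2066 to 11967 lower and from 235 to 1286 higher. At an adjusted p under 0.01, line 1 had 849 higher, line 2 had 1045 lower and 125 higher, and both lines had 935 lower and 111 higher. At 50 points, line 1 had 5166 lower and 517 higher CpGs, line 2 had 355 and 32, and both lines had 270 and 17. With CpGs thinned to the smallest depth, line 2 had 993 lower and 101 higher, and both lines had 890 lower and 81 higher. Without weights, limma gave 848 members lower and 81 higher at an unadjusted p under 0.05. Beyond what the settings state of themselves, the cause was not tested.

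Depth limits single CpGs: the median interval of a CpG was 28.5 points wide in parental, against 13.2 points for a window. Genes could be named at 206 of the 12467 members only, and the sequences between CpGs of the other members were not used here.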

Other observations

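Beyond the first 3, the longest runs of members included 2 on chromosome 15. At chr15:25302001-25305000 (25 CpGs) the mean level was 59.8% in parental, 53.9% in line 1 and 53.7% in line 2. At chr15:25334001-25337000 (20 CpGs) it was 53.8%, 63.1% and 61.4%, so both lines lay above parental there, unlike at the 3 runs named above. A run on chromosome 11, chr11:69910001-69913000 (21 CpGs), had 50.1%, 36.1% and 43.2%. These runs were named after their values were seen, and the differences were not tested.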
